A study of Arabidopsis thaliana with 9 samples.

Results

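Alpha-expansins, the products of the EXPA genes, were followed across dry seeds of 3 Arabidopsis thaliana genotypes. Members were all probe sets (groups of short array oligonucleotides read as 1 value) listed with a single gene whose symbol is EXPA and a number. There were 10 of them, for EXPA4, EXPA7, EXPA8, EXPA9, EXPA15, EXPA16, EXPA18, EXPA20, EXPA21 and EXPA24, among 13513 probe sets with 1 listed gene and 22746 tested. Each of the 10 genes had 1 such probe set. The gene table used here holds 26 expansin A genes. Of these, 4 share 2 probe sets (EXPA22 with EXP26, and EXPA23 with EXPA25) and 12 had no named probe set, among them EXPA1 and EXPA2, and these 12 were not analysed here.

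Total RNA came from mature, freshly harvested dry seeds, and each genotype had 3 biological replicates, every one a bulk of 8 plants hybridised to its own array. The dog1-1 mutant is labelled as lacking DOG1 expression. NILDOG1 is a near isogenic line with the DOG1 allele of the Cvi accession, labelled as strongly expressed, and Ler is the Landsberg erecta wild type, labelled as low. All 3 groups share the Landsberg erecta background in the labels, and none received a treatment. As background, dog1-1 was isolated in a line that carried Cvi DOG1, so dog1-1 and NILDOG1 may both carry Cvi sequence next to DOG1 and elsewhere. The level of DOG1, which had no named probe set, was not analysed here.

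Expansins loosen plant cell walls. They act in acidic walls and slip between cellulose microfibrils and the xyloglucan bound to them, without cutting either, so that the wall can yield to turgor. The alpha group is the one tied most closely to this acid growth. In seeds, expansins are known for the growth of the embryo axis and for the weakening of the endosperm cap that precede root emergence, and in Arabidopsis EXPA2 is the member best known from the germinating endosperm. A dry seed holds stored transcripts laid down during maturation, and DOG1 is a regulator of seed dormancy that acts in that phase.

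All levels below are log2 signals normalized by the authors, and errors are standard deviations over 3 arrays unless a standard error (SE) is named. A change is a difference of mean log2 signals, dog1-1 or NILDOG1 minus Ler or dog1-1 minus NILDOG1, from limma in 1 fit of all 9 arrays, and passes at a Benjamini-Hochberg adjusted p under 0.05 over all 22746 probe sets. The TrpnX controls, 3 probe sets for a bacterial gene that plants lack, ran from 1.82 to 2.56 on single arrays, and a mean at or under 2.56 is called background. Signals of different probe sets are not set against each other, since their probes differ. In bulk seeds, fewer cells that hold a transcript and less transcript per cell cannot be told apart.

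The seed identity of the samples was checked on 2 measured markers of 16 listed: PAP85, a storage protein gene, had means of 13.54, 13.50 and 13.45 in dog1-1, NILDOG1 and Ler, and M17, a late maturation gene that passed as lower in dog1-1, 9.96, 11.77 and 11.58. Array medians lay between 3.51 and 3.59, and correlations within a genotype between 0.992 and 0.996. Ler replicate 1 and dog1-1 replicate 3 were low for the 25S ribosomal RNA control (7.33 and 8.04, against 9.86 to 11.88 on the other 7 arrays). The 9 hybridization controls, spiked in before hybridization, averaged 8.51 to 8.98 on the dog1-1 arrays, 8.91 to 9.05 on the NILDOG1 arrays and 8.96 to 9.39 on the Ler arrays. Precision is limited by having 3 arrays a genotype.

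In dog1-1 seeds 4 of the 10 expansin A genes were higher than in Ler, 1 was lower and 5 did not pass. EXPA15 rose 3.88-fold, EXPA20 1.90-fold, EXPA8 1.80-fold and EXPA9 1.40-fold, and EXPA24 fell to background. Over all probe sets the fit called 13.6% between dog1-1 and Ler, 8.33% higher and 5.28% lower. The 4 higher genes had been singled out in earlier results of these data, so the count does not test the family against these shares. The median change of the 10 genes was 0.13, against -0.040 over all probe sets tested. When each array was centred on its hybridization controls, the called probe sets were 94.2% higher instead of 61.2% and the median of all probe sets became 0.34. The 4 rises passed there too, while EXPA24 no longer did.

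EXPA15 (AT2G03090) was above background on all 9 arrays. It had 6.58, 6.005 and 6.85 in the dog1-1 arrays, 4.23, 4.41 and 4.76 in the NILDOG1 arrays and 4.46, 4.76 and 4.36 in the Ler arrays. All 3 dog1-1 arrays lay above the other 6, while the NILDOG1 and Ler arrays covered the same range. The change between dog1-1 and Ler was 1.95 (SE 0.20, 95% interval 1.51 to 2.40, adjusted p = 4.07e-05). That is a 3.88-fold difference, with an interval from 2.85-fold to 5.27-fold. Only 0.492% of all probe sets had a larger rise. Leaving out 1 array at a time gave changes from 1.77 to 2.19.

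**Figure D1:**
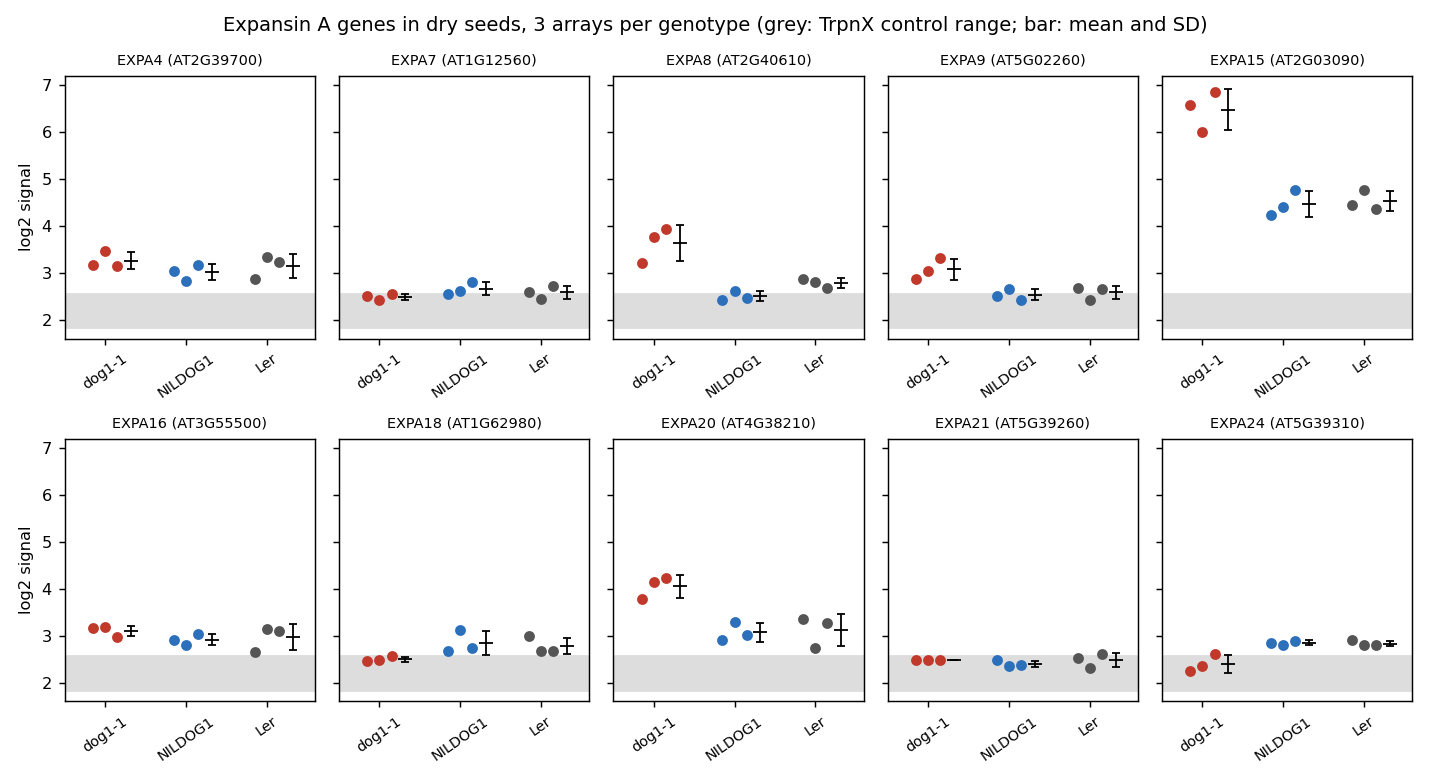
Log2 signal (vertical axis) of each of the 10 expansin A genes on every array, grouped by genotype with dog1-1 left, NILDOG1 in the middle and Ler right. Each point is 1 array, the bar beside it is the mean with its standard deviation over 3 arrays, and the grey band is the range of the TrpnX controls from 1.82 to 2.56. EXPA15 is highest on the 3 dog1-1 arrays (6.005 to 6.85), and EXPA20, EXPA8 and EXPA9 also stand above the other genotypes there, while the mean of EXPA24 in dog1-1 lies in the band.

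EXPA20 (AT4G38210) had 3.77, 4.15 and 4.22 in dog1-1, 2.90, 3.29 and 3.02 in NILDOG1 and 3.36, 2.74 and 3.27 in Ler. The dog1-1 arrays were again above all others, and the 2 other genotypes overlapped. The change against Ler was 0.93 (SE 0.17, 95% interval 0.54 to 1.31, adjusted p = 0.00332).

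EXPA8 (AT2G40610) had 3.21, 3.77 and 3.93 in dog1-1, 2.43, 2.63 and 2.47 in NILDOG1 and 2.87, 2.81 and 2.68 in Ler. Here the 3 genotypes formed 3 separate ranges, dog1-1 highest and NILDOG1 lowest, with the NILDOG1 mean of 2.51 at background. The change between dog1-1 and Ler was 0.85 (SE 0.16, 95% interval 0.50 to 1.20, adjusted p = 0.00320). The spread among the dog1-1 arrays (SD 0.38) was the widest of this gene, with replicate 1 the lowest.

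EXPA9 (AT5G02260) was dim throughout. It had 2.88, 3.04 and 3.32 in dog1-1, 2.52, 2.66 and 2.42 in NILDOG1 and 2.68, 2.43 and 2.66 in Ler. The dog1-1 arrays did not overlap the others, but they sat close above the TrpnX range, and the means of NILDOG1 (2.53) and Ler (2.59) were at its upper edge. The change between dog1-1 and Ler was 0.49 (SE 0.13, 95% interval 0.21 to 0.76, adjusted p = 0.0225). This call was lost without Ler replicate 2 (0.41, adjusted p = 0.0857), dog1-1 replicate 2 (0.51, adjusted p = 0.0526) or dog1-1 replicate 3 (0.37, adjusted p = 0.102), without both arrays low in 25S ribosomal RNA (0.42, adjusted p = 0.0923), and when only the dog1-1 and Ler arrays were fitted (adjusted p = 0.0512).

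EXPA24 (AT5G39310) moved the other way. It had 2.24, 2.35 and 2.62 in dog1-1, 2.85, 2.79 and 2.89 in NILDOG1 and 2.90, 2.79 and 2.79 in Ler. The dog1-1 mean of 2.40 was at background and its arrays lay below the other 6. The change against Ler was -0.43 (SE 0.11, 95% interval -0.66 to -0.19, adjusted p = 0.0195). Since the dog1-1 level is only a bound, the means put EXPA24 at least 1.19-fold lower there. Such fold bounds, here and below, compare means only and leave out the spread over arrays. The call was lost without Ler replicate 1 (-0.39, adjusted p = 0.0570), dog1-1 replicate 1 (-0.34, adjusted p = 0.0665) or dog1-1 replicate 2 (-0.40, adjusted p = 0.0680), and when only the dog1-1 and Ler arrays were fitted (adjusted p = 0.0504). With each array centred on its hybridization controls, the change was -0.049 (adjusted p = 0.840).

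The 5 remaining genes did not pass between dog1-1 and Ler. EXPA7 and EXPA18, known in Arabidopsis as root hair expansins, had means of 2.49 and 2.50 in dog1-1, 2.66 and 2.84 in NILDOG1, and 2.59 and 2.78 in Ler. For EXPA18 the 3 dog1-1 arrays (2.46 to 2.56) lay under all Ler arrays (2.67 to 2.98), with a measured change of -0.28 (adjusted p = 0.217). The dog1-1 mean of EXPA18 was at background, as was that of EXPA7, so these dog1-1 levels are only bounds. EXPA21 was at background in all 3 genotypes (2.48, 2.40 and 2.48), so its change cannot be judged. EXPA4 ranged from 3.14 to 3.48 in dog1-1 and from 2.86 to 3.34 in Ler, a change of 0.12 (95% interval -0.20 to 0.43). EXPA16 ranged from 2.97 to 3.17 in dog1-1 and from 2.64 to 3.14 in Ler, a change of 0.14 (95% interval -0.16 to 0.44). Arrays of dog1-1 and Ler did not overlap for 6 of the 10 genes (4 higher and 2 lower in dog1-1), where 26.9% of all probe sets did not overlap. Means were above background for 6 of the 10 genes in dog1-1, 7 in NILDOG1 and 9 in Ler, and for 4 (EXPA4, EXPA15, EXPA16 and EXPA20) in every genotype. In Ler, EXPA7 (2.59 ± 0.14) and EXPA9 (2.59 ± 0.14) lay within their spread of the limit of 2.56, so these counts do not rank the genotypes.

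**Figure D2:**
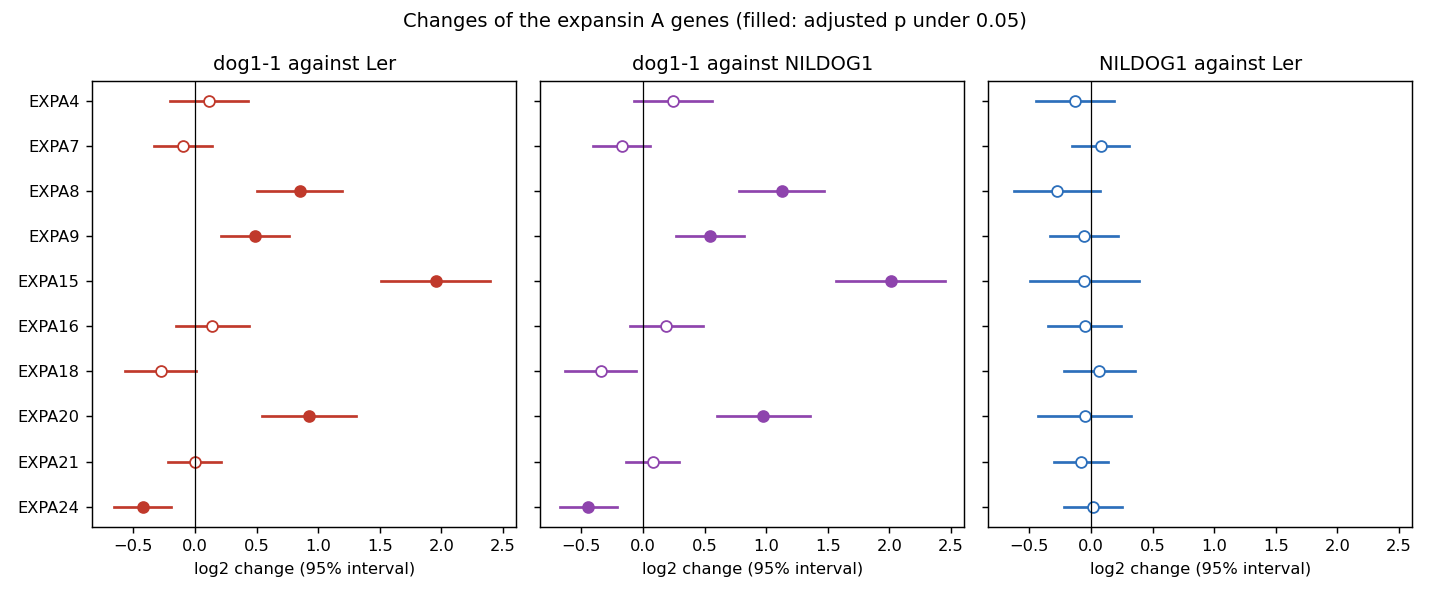
Log2 change (horizontal axis) of each expansin A gene with its 95% interval from limma, for dog1-1 against Ler, dog1-1 against NILDOG1 and NILDOG1 against Ler. Filled points passed an adjusted p of 0.05. The same 5 genes are filled in both comparisons of dog1-1, and none is filled for NILDOG1 against Ler.

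Against NILDOG1 the dog1-1 seeds gave the same count, 4 genes higher, 1 lower and 5 not passing, and the same 5 genes passed. The 2 comparisons share the dog1-1 arrays, so the second is not a separate line of evidence for what those arrays show. EXPA15 was 4.03-fold higher in dog1-1 (change 2.01, SE 0.20, adjusted p = 3.33e-05), and EXPA20 1.97-fold (change 0.98, SE 0.17, adjusted p = 0.00235). EXPA8 was at least 2.08-fold higher, since NILDOG1 was at background (measured change 1.13, SE 0.16, adjusted p = 4.29e-04). EXPA9 was at least 1.40-fold higher (measured change 0.55, SE 0.13, adjusted p = 0.0125). That call was lost without dog1-1 replicate 3 (adjusted p = 0.0596) or NILDOG1 replicate 3 (adjusted p = 0.0574) and without both arrays low in 25S ribosomal RNA (adjusted p = 0.0565). EXPA24 was at least 1.21-fold lower in dog1-1 by its means (measured change -0.44, SE 0.11, 95% interval -0.68 to -0.21, adjusted p = 0.0161). It no longer passed when any of dog1-1 replicates 1 and 2 and NILDOG1 replicates 1 and 3 was left out (adjusted p = 0.0556 to 0.0594), or with arrays centred on the hybridization controls (adjusted p = 0.641).

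Over all probe sets 12.5% were called between dog1-1 and NILDOG1, 7.52% higher and 4.94% lower in dog1-1. After centring on the hybridization controls 83.5% of the calls were higher, against 60.4% without it. The median change of the 10 genes was 0.22, against -0.035 over all. Arrays did not overlap for 6 of the 10 genes, 4 higher and 2 lower in dog1-1, where 27% of all probe sets did not. EXPA18 was the gene without overlap that did not pass, with 2.46, 2.48 and 2.56 in dog1-1 and 2.67, 3.13 and 2.73 in NILDOG1 (measured change -0.34 from a dog1-1 mean at background, adjusted p = 0.130).

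Between NILDOG1 and Ler, which differ in labelled DOG1 expression from strong to low, 0 of the 10 genes passed with limma, and 0 had an unadjusted p under 0.05. The fit called 0.545% of all probe sets there, 0.321% higher and 0.224% lower, so a count of 0 among 10 is near that background. At an unadjusted p under 0.05, 707 of all 22746 probe sets were higher and 636 lower, so 0 among 10 says little there either. After centring on the hybridization controls 84.0% of all calls were higher, against 58.9% without it. EXPA15 had a change of -0.056 (95% interval -0.50 to 0.39), and EXPA20 of -0.052 (95% interval -0.43 to 0.33). EXPA9 had a measured change of -0.058 with NILDOG1 at background (95% interval -0.33 to 0.22). For EXPA15 the interval runs from 0.708-fold to 1.31-fold, so a 2-fold difference in either direction lies outside it. EXPA8 had the largest measured difference of the 10, -0.28 with NILDOG1 at background (95% interval -0.62 to 0.071, adjusted p = 0.920), and was the 1 gene of 10 whose arrays did not overlap, where 9.32% of all probe sets did not. The median change of the 10 genes was -0.054, against -0.0018 over all. The order of levels was therefore dog1-1, then Ler and NILDOG1 without a difference past the threshold, for EXPA15, EXPA20, EXPA8 and EXPA9, and the reverse for EXPA24.

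**Figure D3:**
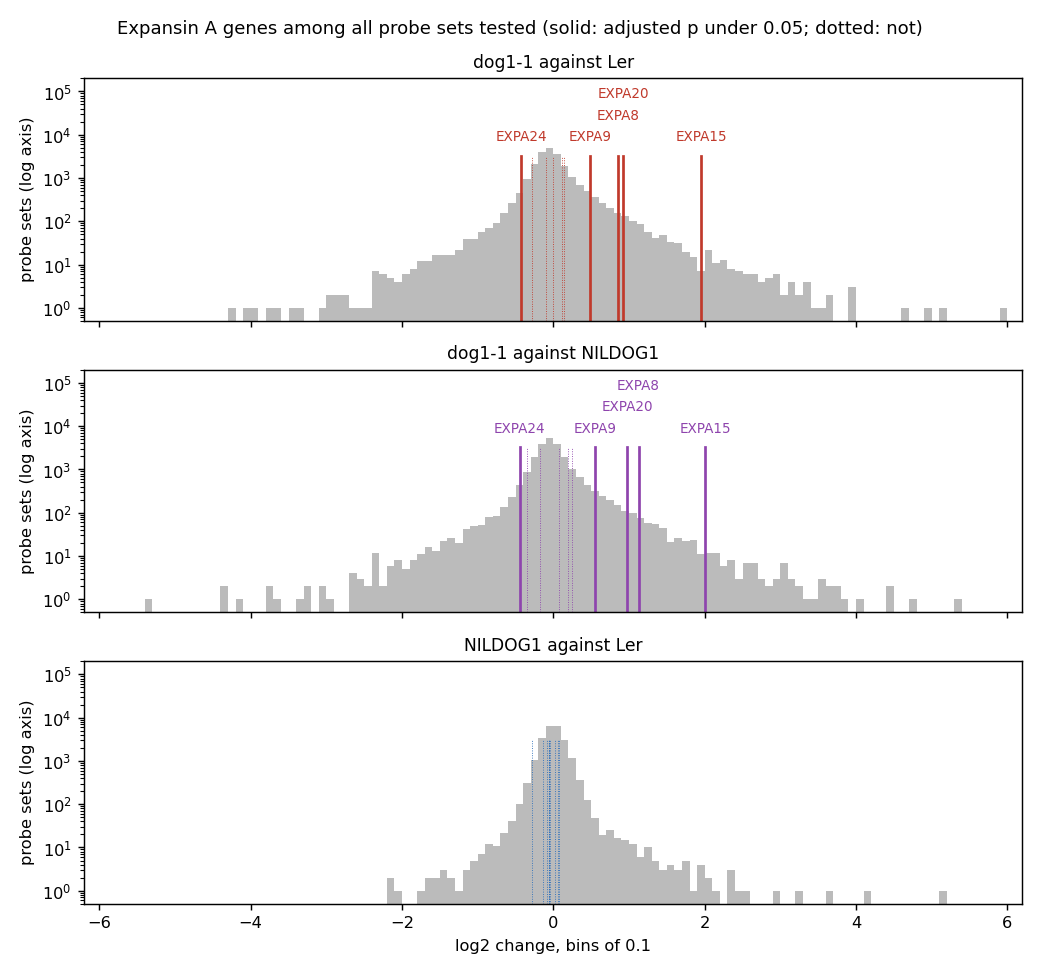
Number of probe sets (vertical log axis) by log2 change in bins of 0.1 (horizontal axis) for all 22746 probe sets tested, with the expansin A genes as lines, solid where the adjusted p was under 0.05 and dotted otherwise. In both comparisons of dog1-1 the line of EXPA15 stands far to the right (changes of 1.95 and 2.01), and between NILDOG1 and Ler all 10 lines lie between -0.28 and 0.078.

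Of the 4 members that rose, EXPA15 had the largest change, and its order over the dog1-1 arrays was not that of the other 3. Between dog1-1 and Ler, the change of EXPA8 minus that of EXPA15 was -1.105, and the arrays of the 2 genotypes did not overlap in the log2 difference of these genes. For EXPA15 minus EXPA20 it was 1.03, and here the arrays overlapped. For EXPA8 minus EXPA20 it was -0.076, also with overlap. Within dog1-1, EXPA8, EXPA9, EXPA18, EXPA20 and EXPA24 were lowest on replicate 1 and highest on replicate 3, while EXPA15 was lowest on replicate 2. With genotype means removed, correlations over 9 arrays were 0.84 for EXPA9 with EXPA20, 0.72 for EXPA8 with EXPA9 and 0.59 for EXPA8 with EXPA20. EXPA15 had -0.25 to 0.048 with these 3. EXPA24, which fell, had 0.75 with EXPA8, 0.69 with EXPA9 and 0.46 with EXPA20. EXPA18, which did not pass, had 0.45, 0.58 and 0.67 with them in that order. Those of EXPA4 and EXPA16 with them were all negative (-0.66 to -0.11), and those of EXPA7 and EXPA21 were of mixed sign. These are descriptions of 9 arrays that share 1 normalization. Replicate 3 of dog1-1 was also the array with the low 25S ribosomal RNA control and the lowest hybridization controls (8.51), and the part of these in the order was not tested. Without that replicate the changes of EXPA15, EXPA20 and EXPA8 against Ler still passed, while that of EXPA9 did not (0.37, adjusted p = 0.102).

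Genes whose log2 signals over the 9 arrays were most like a member's were taken by Pearson correlation among probe sets with 1 gene outside the family. For EXPA15 these were PRXR1, a peroxidase gene (r = 0.985), AT5G65530 (0.982) and AT1G45688 (0.980), which were higher in dog1-1 than in Ler by 2.16, 1.03 and 1.58. For EXPA20 they were AT3G23600 (0.992), AT2G32520 (0.991) and AT3G14600 (0.979). For EXPA8 they were AT4G01150, which encodes the thylakoid protein CURT1A (0.983), AT4G39200 (0.983) and AT2G47610 (0.981). For EXPA9 they were AT1G02305 (0.993), AT2G42320 (0.972) and AT3G62630 (0.969), and for EXPA24 AT1G75170, AT1G73400 and AT1G21370 (0.961 to 0.963). For the 5 genes that did not pass, the 3 best correlations lay between 0.859 and 0.976, led by LUP5 for EXPA7 (0.976), AGL29 for EXPA18 (0.961), AT2G44195 for EXPA21 (0.923), AT5G17370 for EXPA16 (0.917) and AT4G33800 for EXPA4 (0.888). For the genes that passed, the arrays fall into dog1-1 and the rest, so a high correlation can rest on that one step. EXPA21 was at background in every genotype, so its likeness to other genes cannot be judged. All these correlations are the best of many candidates over 9 arrays, and none was tested.

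EXPA9 lies near the start of chromosome 5, where both lines may carry Cvi sequence, and a Cvi allele can bind probes differently from a Ler allele. Its neighbours were therefore set beside it. Of the 40 named loci nearest to it in gene order (AT5G01940 to AT5G02640), 13 were called between dog1-1 and Ler (9 higher, 4 lower), 11 between dog1-1 and NILDOG1 (6 higher, 5 lower) and 2 between NILDOG1 and Ler (1 higher, 1 lower). These are 32.5%, 27.5% and 5%, against 13.6%, 12.5% and 0.545% over all probe sets. The next named gene, AT5G02280, was lower in both lines than in Ler (5.17 ± 0.17 in dog1-1 and 4.73 ± 0.025 in NILDOG1, against 5.95 in Ler). AT5G02230, the second named gene before it, was higher in dog1-1 (8.50 ± 0.15) than in NILDOG1 (6.73 ± 0.24) and Ler (6.06). AT5G02580, called in NILDOG1, had means of 10.16 in dog1-1, 10.77 in NILDOG1 and 9.53 in Ler. The other neighbours called between dog1-1 and Ler changed by less than AT5G02230. SIS, AT5G02050, AT5G02160, AT5G02370, AT5G02450, Hsp70-2 and AT5G02610 were higher in dog1-1, by 0.56 to 1.03, and AT5G02480, AT5G02590 and ANK1 were lower, with changes of -0.50 to -0.47. AT5G01950 was called only between dog1-1 and NILDOG1 (change of -0.55). Both AT5G02280 and AT5G02580 passed in NILDOG1 against Ler, where EXPA9 did not (2.53 and 2.59). The EXPA9 means were at the upper edge of the TrpnX range in both, so a fall could not have been seen. Whether the sequence of either line affects the EXPA9 probes was not tested.

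EXPA21 and EXPA24 mark the ends of a run of 6 adjacent expansin A genes (AT5G39260 to AT5G39310) on the same chromosome. The 4 genes between them are the ones on shared probe sets. The probe set of EXPA22 and EXP26 was at background in dog1-1 (2.34), NILDOG1 (2.38) and Ler (2.37). That of EXPA23 and EXPA25 had 2.69 ± 0.095 in dog1-1, 2.85 ± 0.25 in NILDOG1 and 2.91 ± 0.17 in Ler and did not pass (adjusted p = 0.360 between dog1-1 and Ler). EXPA24 was thus the only one of the 4 probe sets in the run that passed in the comparisons of dog1-1. Among 41 probe sets of the 40 named loci around the run, a set chosen after the values were seen, 11 were called between dog1-1 and Ler (4 higher, 7 lower), 8 between dog1-1 and NILDOG1 (2 higher, 6 lower) and 2 between NILDOG1 and Ler (1 higher, 1 lower). These are 26.8%, 19.5% and 4.88%, against 13.6%, 12.5% and 0.545% over all probe sets.

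**Figure D4:**
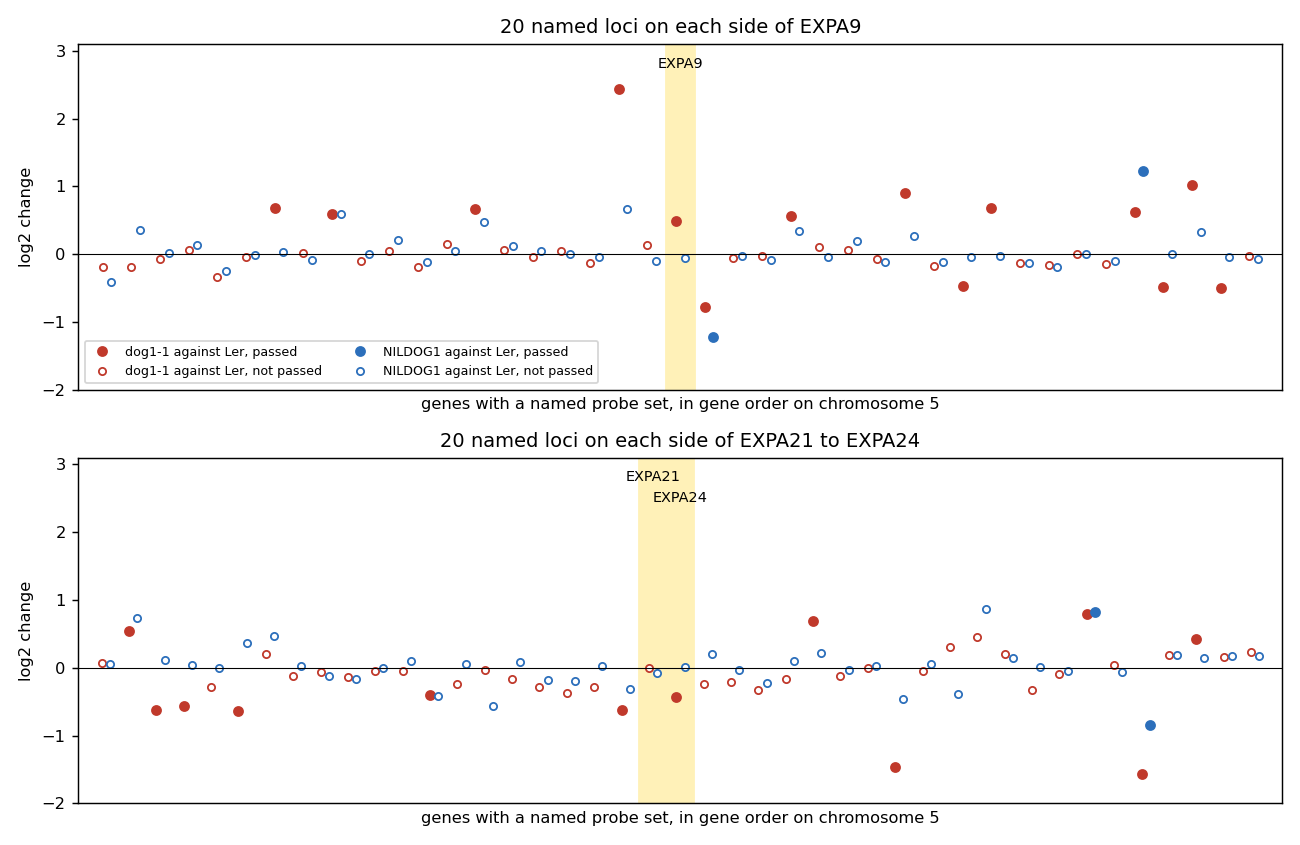
Log2 change against Ler (vertical axis) of dog1-1 (red) and NILDOG1 (blue) for the named loci around EXPA9 (upper panel) and around the run from EXPA21 to EXPA24 (lower panel), in gene order, with the expansin genes on yellow. Filled points passed an adjusted p of 0.05. Next to EXPA9 the gene AT5G02280 is low in both lines (-0.78 and -1.22). The EXPA9 point, from signals close to background, is raised in dog1-1 (0.49) and close to 0 in NILDOG1 (-0.058).

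Other wall-loosening families were measured in part. Of 10 beta-expansin and expansin-like genes (EXPB, EXLA and EXLB) 8 had a named probe set, and 0 passed with limma in any comparison, where 13.6%, 12.5% and 0.545% of all probe sets passed in dog1-1 against Ler, dog1-1 against NILDOG1 and NILDOG1 against Ler. With 8 genes, a count of 0 is not far from these shares. At an unadjusted p under 0.05, EXLA1 was lower in dog1-1 than in NILDOG1 and there was no other. Over all 22746 probe sets, 2772 were higher and 2605 lower in dog1-1 against NILDOG1 at that threshold. EXLA1, named for its mean signal since no gene of the list passed, had 9.40 ± 0.16 in dog1-1, 9.70 ± 0.19 in NILDOG1 and 9.63 ± 0.083 in Ler. Its change was -0.22 against Ler (adjusted p = 0.278) and -0.29 against NILDOG1 (adjusted p = 0.155). The other 7 had means between 2.56 and 3.49 in every genotype, close to the background range. The medians of the 8 changes were -0.012, -0.0023 and 0.042 for dog1-1 against Ler, dog1-1 against NILDOG1 and NILDOG1 against Ler.

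XTH genes encode enzymes that cut and rejoin xyloglucan, the polymer on which expansins are thought to act. A named probe set was found for 9 of the 30 listed genes. In dog1-1 against Ler 1 was higher, 0 were lower and 8 did not pass, and against NILDOG1 the count was the same. A count of 1 among 9 is near the 13.6% and 12.5% called over all probe sets in these comparisons. The gene that passed was XTH19, with 2.76, 3.17 and 3.41 in dog1-1, 2.44, 2.50 and 2.64 in NILDOG1 and 2.48, 2.40 and 2.47 in Ler. XTH19 was lowest on replicate 1 and highest on replicate 3 of dog1-1. EXPA8, EXPA9 and EXPA20 had that order, as did EXPA24, which fell, and EXPA18, which did not pass. Its measured change was 0.66 against Ler (adjusted p = 0.00742) and 0.58 against NILDOG1 (adjusted p = 0.0164), and both NILDOG1 and Ler were at background. The call against Ler was lost without both arrays low in 25S ribosomal RNA, and that against NILDOG1 was lost there and without any 1 of dog1-1 replicates 2 and 3 and NILDOG1 replicates 1 and 2. Between NILDOG1 and Ler 0 of the 9 passed with limma, where 0.545% of all probe sets did, so this count is near that share. At an unadjusted p under 0.05 there were 0 too, where 707 of all 22746 probe sets were higher and 636 lower. XTH33, named for its mean signal, had a change of 0.21 (adjusted p = 0.917), with 2.87 ± 0.23 in NILDOG1 and 2.66 ± 0.078 in Ler. Of the 9 genes 4 were at background in all 3 genotypes. The median XTH changes were 3.79e-04 for dog1-1 against Ler, -0.0023 for dog1-1 against NILDOG1 and 0.024 for NILDOG1 against Ler. Lists of mannanases, GASA peptides, AHA proton pumps and SAUR genes had 0 named probe sets and were not analysed here.

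**Figure D5:**
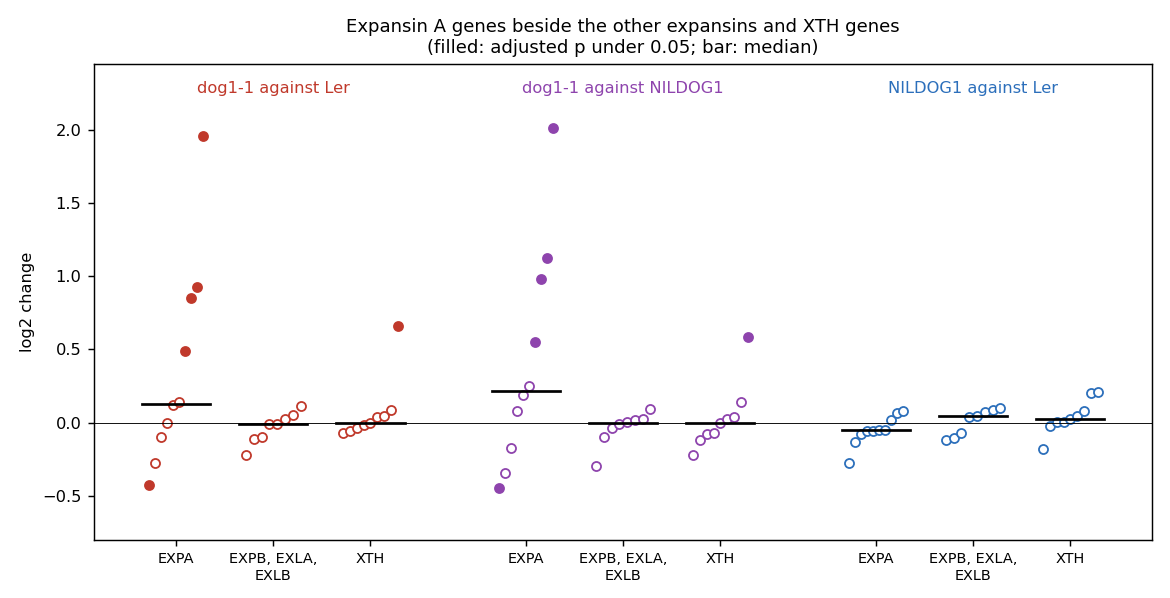
Log2 change (vertical axis) of every measured gene of the expansin A list (EXPA), the other expansins (EXPB, EXLA, EXLB) and the XTH list in each comparison, filled where the adjusted p was under 0.05, with the median as a bar. In dog1-1 against Ler 5 EXPA points are filled, from -0.43 to 1.95, against none of the other expansins and 1 XTH gene at 0.66.

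Markers of other tissues were set beside the expansins, since wall-loosening transcripts can come from several of them. Of 13 green tissue genes 4 were measured. RCA, which encodes Rubisco activase, had means of 5.82 in dog1-1, 4.34 in NILDOG1 and 4.299 in Ler. RCA and the light harvesting genes LHCB4.3 and LHCB4.2 were higher in dog1-1 than in Ler (changes of 1.52, 0.98 and 0.50), and LHCB4.1 was lower (change of -0.62). All 4 had signals above background on all 9 arrays. LHCB4.1 (AT5G01530) had means of 8.14 in dog1-1, 8.96 in NILDOG1 and 8.75 in Ler. Between NILDOG1 and Ler it did not pass (change of 0.20, adjusted p = 0.943). It lies near the start of chromosome 5, as EXPA9 does, where both lines may carry Cvi sequence. Whether that affects its probes was not tested. Of 8 endosperm genes 2 were measured. IKU2 was lower in dog1-1 than in Ler (change -0.42, adjusted p = 0.0153). It did not pass between dog1-1 and NILDOG1 (-0.19, adjusted p = 0.289) or between NILDOG1 and Ler (-0.23, adjusted p = 0.820). AGL62 was at background in dog1-1 (2.21), NILDOG1 (2.26) and Ler (2.35). Of 8 seed coat genes 2 were measured, DFR (2.57, 2.81 and 2.81 in dog1-1, NILDOG1 and Ler) and BAN (2.83, 2.77 and 2.84), and neither passed. The part of tissue composition in the expansin changes was not tested.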

How the data were processed

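The authors normalized the array signals with RMA before they deposited them as log2 values, 1 for each probe set and array, per the submitters' processing notes. The log base was read from the values, and neither a version of RMA nor a chip definition is stated in the labels or headers. Of 22810 probe sets 64 controls were left out of the tests. Probe sets were named through the platform annotation and matched by gene ID to a gene table of assembly TAIR10.1; 13513 had 1 gene, 503 several and 8730 were not listed. No coordinates or sequences are printed. Changes, standard errors and 95% intervals came from limma 3.58.1 in R 4.3.3 (lmFit and eBayes, genotype as the only term, 6 residual degrees of freedom, Benjamini-Hochberg adjustment). The fit was tested on simulated data.

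Replicate numbers were not used as pairs: after removal of genotype means, correlations of same-numbered arrays ran from -0.231 to 0.0299, with 0 of 9 over 0.1. The members, lists and tests were chosen with earlier results of these data known, and 4 members (EXPA8, EXPA9, EXPA15 and EXPA20) were singled out in them. Named genes were all members; for each other list and comparison, at most 2 called genes each way or, with none called, its brightest; 3 genes most like each member; and genes called among 40 loci around EXPA9. Other genes were named after their values were seen. Alternatives were a trended robust prior, leaving out dim probe sets, quantile normalization, centring on hybridization controls, fitting only the genotypes compared, a replicate block, leaving out each array, and, chosen after seeing the data, leaving out both arrays low in 25S ribosomal RNA.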

Additional observations from a re-analysis of the deposited data

How the results depend on the processing

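The rises of EXPA15, EXPA20 and EXPA8 in dog1-1, against Ler and against NILDOG1, passed under all 16 alternatives run, with changes against Ler from 1.73 to 2.33, 0.73 to 1.30 and 0.70 to 1.23. EXPA9 passed in 11 of 16 against Ler and 13 of 16 against NILDOG1. The number of expansin A genes called fell to 3 (EXPA8, EXPA15 and EXPA20) between dog1-1 and Ler when only those genotypes were fitted, and ran from 3 to 5 when single arrays were left out, as it did between dog1-1 and NILDOG1; the lowest counts came without dog1-1 replicate 2 and without NILDOG1 replicate 3. Probe sets called between dog1-1 and Ler numbered 3095, against 4830 after centring on the hybridization controls (median change of all 0.34) and 1981 without both arrays low in 25S ribosomal RNA. Between NILDOG1 and Ler they numbered 124, against 70 without those arrays and 65 to 137 without single arrays, with 80 lacking Ler replicate 3, 65 lacking NILDOG1 replicate 1 and 67 lacking NILDOG1 replicate 2. With the replicate block the fit called 2792, 2567 and 114 probe sets for dog1-1 against Ler, dog1-1 against NILDOG1 and NILDOG1 against Ler, and the same 5, 5 and 0 expansin A genes.

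Changes that turned sign were all of genes that had not passed and did not pass then either. Centring on the hybridization controls turned EXPA7 (0.28), EXPA18 (0.10) and EXPA21 (0.37) in dog1-1 against Ler, EXPA7 (0.025) in dog1-1 against NILDOG1, and EXPA4 (0.048), EXPA9 (0.12), EXPA15 (0.12), EXPA16 (0.13), EXPA20 (0.13) and EXPA21 (0.097) in NILDOG1 against Ler. EXPA21 also turned in dog1-1 against Ler with quantile normalization (0.056) and without both arrays low in 25S ribosomal RNA (0.021), and EXPA20 in NILDOG1 against Ler without those arrays (0.066). Without single arrays, changes in dog1-1 against Ler ran from -0.026 to 0.21 for EXPA4, -0.021 to 0.23 for EXPA16 and -0.090 to 0.059 for EXPA21, and in NILDOG1 against Ler from -0.20 to 0.063 for EXPA15, -0.21 to 0.041 for EXPA16, -0.076 to 0.17 for EXPA18, -0.24 to 0.066 for EXPA20 and -0.0049 to 0.052 for EXPA24. The cause was not tested. EXPA21 was absent once dim probe sets were left out. Signal over background limits EXPA7, EXPA8, EXPA9, EXPA18, EXPA21 and EXPA24, which were not above background on every array, and the background rests on 3 control probe sets.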

Other observations

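Identical values recurred at every level of signal, most often among the dim probe sets. Of the 10 expansin A genes 6 had the same log2 signal on 2 or 3 arrays. EXPA18, EXPA21 and EXPA24 each had 1 value on 3 arrays, and EXPA15 had the same value, 4.76, on NILDOG1 replicate 3 and Ler replicate 2. Of the other expansins 6 of 8 had such a repeat, and EXLA3 had 1 value on 5 arrays. XTH29 also had 1 value on 5 arrays, among them all 3 of Ler, so its standard deviation there is 0. Over all probe sets tested 50.8% had a repeated value, 65% of those with a mean signal under 4, 36.7% of those from 4 to 8 and 20.5% of those of 8 or more. EXPA8, EXPA9, EXPA16 and EXPA20 had none. The EXPA24 repeat was on NILDOG1 replicate 2 and on Ler replicates 2 and 3, and that of EXPA18 on NILDOG1 replicate 1 and the same 2 Ler arrays.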
